A study of Homo sapiens with 8 samples.

Results

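The regions described here are the stretches of Polycomb-marked chromatin that overlap 10 windows around known imprinted genes in HAP1 cells. They were taken by position, as every region of the deposited table that touches a window on hg19, and 38 of 34703 regions qualified. The windows themselves were chosen with earlier results of these data known. The windows were H19-IGF2 (chromosome 11, 2.00 to 2.18 Mb), KCNQ1-CDKN1C (chromosome 11, 2.46 to 2.95 Mb), DLK1-MEG3 (chromosome 14, 101.15 to 101.55 Mb) and MAGEL2-SNRPN-UBE3A (chromosome 15, 23.80 to 25.70 Mb). Chromosome 7 held GRB10 (50.65 to 50.87 Mb), PEG10-SGCE (94.20 to 94.32 Mb) and MEST (130.11 to 130.16 Mb). GNAS lay on chromosome 20 (57.39 to 57.50 Mb), and PLAGL1 (144.25 to 144.40 Mb) and IGF2R (160.38 to 160.54 Mb) on chromosome 6. PEG10-SGCE held no region, so 9 windows carried the 38. The table names no genes and no hg19 gene annotation was used, so a region is given by its window, its number along the chromosome and its position, and no region is assigned to a gene.

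Chromatin immunoprecipitation with sequencing (ChIP-seq) had been run for H2AK119ub and H3K27me3 in wild-type HAP1 cells and in HAP1 RING1A/B-DKO cells. Each combination of mark and genotype has 2 libraries, and there are 8 in all. The wild-type group is the unedited control. The double knockout, called the knockout below, was made from a RING1A knockout HAP1 line by Cas9 editing of RING1B, with sorted single cells grown into clones and screened for loss of RING1B protein. The sources used here do not say whether the duplicates are separate cultures or clones, so p-values measure only the spread between these libraries, which may be technical. The H3K27me3 antibody in the labels differs from that in the protocol text, and the sources used do not say which one HAP1 received.

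H2AK119ub is written by RING1A and RING1B, the ligases of Polycomb repressive complex 1 (PRC1), and H3K27me3 by Polycomb repressive complex 2 (PRC2). The PRC2 complex can bind H2AK119ub and some PRC1 complexes bind H3K27me3, so each mark can help to place the other. Imprinted genes are expressed from the maternal or the paternal allele, as set by DNA methylation inherited from the germline, and at several domains the silent allele also carries Polycomb marks. In mouse, the long noncoding RNA Kcnq1ot1 is linked to PRC1 and PRC2 along its domain in the placenta. HAP1 is a near-haploid human leukaemia line and carries a single parental copy of nearly every chromosome. Each domain is therefore present mainly as the copy of a single parent, and the sources used here do not say which parent.

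PRC2 is known to be recruited to CpG-rich sequence that lacks DNA methylation, so the sequence before 4 genes of the windows is shown with each CG in capitals. GRB10 encodes an adaptor that restrains insulin and insulin-like growth factor receptors, and its window held a single region, which lost H3K27me3. MEG3, H19 and IGF2R belong to windows in which regions gained it, though a region of the DLK1-MEG3 window lost it. The IGF2R call depended on how the libraries were scaled. No gene of KCNQ1-CDKN1C, the window with the largest fall, is shown. Each line gives the 250 bases before the outermost start of the gene in RefSeq, 5′ to 3′ on the gene's strand, with its position on GRCh38.p14. These positions cannot be set against the hg19 regions, so whether a region covers them was not tested, and the sequences of the regions themselves are not shown.
GRB10, chr7:50793454-50793703, minus strand: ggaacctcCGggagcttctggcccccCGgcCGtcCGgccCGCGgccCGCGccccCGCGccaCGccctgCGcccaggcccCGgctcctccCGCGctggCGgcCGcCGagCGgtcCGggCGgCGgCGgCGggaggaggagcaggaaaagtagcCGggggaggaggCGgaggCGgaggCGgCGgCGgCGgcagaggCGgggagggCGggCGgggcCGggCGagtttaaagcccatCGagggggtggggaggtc
MEG3, chr14:100825858-100826107, plus strand: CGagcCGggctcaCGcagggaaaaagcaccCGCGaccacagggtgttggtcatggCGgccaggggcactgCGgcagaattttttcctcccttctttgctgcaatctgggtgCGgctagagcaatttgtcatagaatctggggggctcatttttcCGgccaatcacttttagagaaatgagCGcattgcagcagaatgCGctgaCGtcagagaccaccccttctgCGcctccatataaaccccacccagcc
H19, chr11:2001267-2001516, minus strand: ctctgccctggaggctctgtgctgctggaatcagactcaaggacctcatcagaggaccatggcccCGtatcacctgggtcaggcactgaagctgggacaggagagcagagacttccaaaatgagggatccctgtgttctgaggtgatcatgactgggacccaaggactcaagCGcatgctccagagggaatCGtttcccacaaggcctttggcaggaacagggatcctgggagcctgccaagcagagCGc
IGF2R, chr6:159968832-159969081, plus strand: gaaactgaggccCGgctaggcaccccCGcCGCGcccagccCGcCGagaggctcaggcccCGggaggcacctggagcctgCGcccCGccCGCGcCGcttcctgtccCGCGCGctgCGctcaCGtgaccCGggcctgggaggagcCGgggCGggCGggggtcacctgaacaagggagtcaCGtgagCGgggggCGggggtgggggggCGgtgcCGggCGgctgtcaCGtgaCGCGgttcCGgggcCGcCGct
The GRB10 sequence held 37 CG and the IGF2R sequence 33, the MEG3 sequence 13 and the H19 sequence 4. Of all 35116 RefSeq promoter entries, whose median was 11, 4.0% held at least as many CG in these 250 bases as GRB10 and 8.15% at least as many as IGF2R, against 46.6% for MEG3 and 70.7% for H19. RefSeq has 5 promoter entries for GRB10 and 3 for MEG3. Only the outermost is shown, so their shares hold for that entry. The motif CG reads the same on both strands, and the CG counts describe the letters only.

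The values are the authors' normalized counts per region and library, whole numbers whose normalization method the sources used here do not describe. The total over all regions ran from 1575661 to 1866278 in wild-type H2AK119ub, was 17159 and 20938 in knockout H2AK119ub, and ran from 2393140 to 3788824 in the H3K27me3 libraries. The sequencing depth is unknown. The windows span 3.78 Mb, of which the regions covered 15.5%, beside 15.6% for all regions over the span of the chromosomes. The regions were between 0.8 and 113 kb wide with a median of 8.5 kb, against 6 kb for all regions. Regions that cross a window edge were kept whole, and this applies to 9 of the 38. The IGF2R region has only 8.6 of its 44.4 kb inside its window, the GRB10 region 3.4 of 8.4 kb and the MEST region 26.2 of 45.4 kb.

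How much of a window carried regions differed widely. H19-IGF2 was covered over 71.0% of its length, DLK1-MEG3 over 54.0%, MEST over 52.4%, GNAS over 45.5% and KCNQ1-CDKN1C over 22.9%. PLAGL1, the gene of a zinc finger transcription factor expressed from the paternal allele, had 3 short regions over 7.07% of its window. The 1900 kb MAGEL2-SNRPN-UBE3A window, the Prader-Willi and Angelman syndrome domain, held 4 regions over 1.74% of its length. At PEG10-SGCE, a pair of paternally expressed genes for a retrotransposon-derived protein and a sarcoglycan, the nearest regions lay 93.2 kb before and 815.6 kb after the window.

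In wild type the windows on chromosome 11 were the densest in H2AK119ub. H19-IGF2 held 7.16 and 8.18 normalized counts per kb in the wild-type libraries and KCNQ1-CDKN1C held 6.29 and 6.56, against 3.43 and 4.06 over all regions. GRB10 followed with 4.64 and 6.19. The other windows were near or below the level of all regions, from 4.18 ± 0.387 (SD, n = 2) at GNAS down to 2.33 ± 0.900 (SD, n = 2) at MAGEL2-SNRPN-UBE3A. Of the 38 regions, 24 lay above the middle of the wild-type H2AK119ub density of all regions and 16 above that of H3K27me3. Wild-type H3K27me3 per kb was highest at GRB10, at 8.10 and 7.50, and at H19-IGF2, at 6.82 and 7.10, and lowest at MAGEL2-SNRPN-UBE3A, at 3.42 and 3.15. The order of windows thus differed between the marks, with 0.908 normalized counts of H3K27me3 for each of H2AK119ub at H19-IGF2, 1.49 at DLK1-MEG3 and 1.62 at MEST. These ratios compare windows and say nothing on the amounts of the marks, since the libraries of the marks were made with different antibodies.

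**Figure D1:**
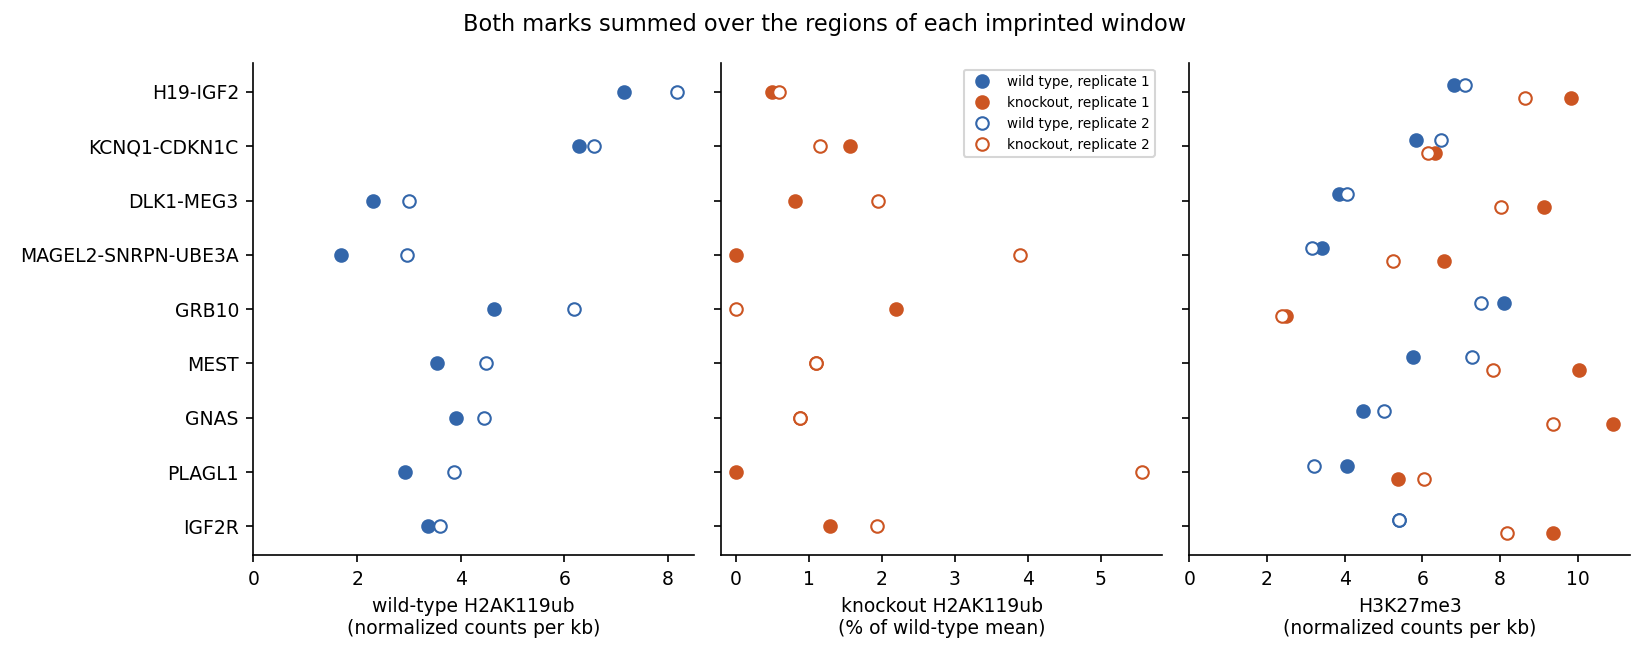
Both marks summed over the regions of each imprinted window. The left panel shows wild-type H2AK119ub and the right panel H3K27me3, in normalized counts per kb, and the middle panel shows knockout H2AK119ub as a percent of the wild-type mean. Each point is a library. Knockout H3K27me3 exceeds wild type in 7 windows, overlaps it at KCNQ1-CDKN1C and is lower at GRB10. Over all regions the summed ratio of knockout to wild type was 1.45. Of the 7 windows, H19-IGF2 (1.32) and MEST (1.37) lay below that ratio. DLK1-MEG3, MAGEL2-SNRPN-UBE3A, GNAS, PLAGL1 and IGF2R lay above it.

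H2AK119ub was almost gone from the imprinted regions in the knockout. Summed over the 38 regions it came to 3248 and 3760 normalized counts in the wild-type libraries against 33 and 42 in the knockout ones. That left 1.07% of wild type, or between 0.878% and 1.29% for pairs of libraries, and the same percentage over all regions was 1.11%. No region held more than 6 normalized counts in a knockout library, and 19 of the 38 were at 0 in both, against 54.7% of all regions. The H19-IGF2 window kept 0.541%, on 6 and 7 normalized counts, KCNQ1-CDKN1C 1.35%, on 15 and 11, and DLK1-MEG3 1.38%, on 5 and 12. The percentages at the other windows with regions rest on 0 to 3 normalized counts in each knockout library. Of the 38 regions 29 passed the filter on low values, all through their wild-type libraries, so a fall was built into passing. All 29 were called lower (limma, Benjamini-Hochberg adjustment at 0.05), as were 100% of tested regions in the whole table after rounding, so the count describes the knockout and not the imprinted windows. Their median log2 fold change (knockout against wild type, after 1 was added to each normalized count) was -5.06, and that of all tested regions was -4.74. Without wild-type replicate 1 the number called was 16, and without wild-type replicate 2 it was also 16. Scaling every library to the same column total, which brings the nearly empty knockout libraries to the total of the wild-type ones, left 10 called and a sum of 96.4% of wild type, and median-of-ratios factors left 12 and 63.1%.

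H3K27me3 changed in both directions, with rises in 8 windows and falls in 3. Of the 38 regions 34 were tested, of which 18 (52.9%) rose and 3 (8.82%) fell (limma, adjusted over all 32209 tested regions by Benjamini-Hochberg), while 13 passed in neither direction. Among all tested regions 47.3% rose and 22.8% fell, so the share of rises was close to the background, and whether the smaller share of falls differs from it was not tested. The median log2 fold change was 0.70 (0.73 and 0.60 for the knockout libraries), against 0.58 for all tested regions. Summed over the 38 regions H3K27me3 went from 3940 ± 183.8 (SD, n = 2) to 5991 ± 527.5 (SD, n = 2) normalized counts, a ratio of 1.52, beside 1.45 for all regions. A change in the mark per cell and a change in the share of cells that carry it cannot be told apart in these bulk samples. By the authors' deposited table, a total of 7 of the 38 had a log2 fold change above 1 with p under 0.05, where 21.1% of all regions did, and 2 had one below -1, where 12.6% did.

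The level between libraries rests on the authors' normalization. Scaling to column totals moved the median log2 fold change of all tested regions by -0.51, and 8 of the 38 were then called higher and 6 lower, against 9613 and 10906 over the whole table. With median-of-ratios factors, which moved that median by -0.50, the counts were 8 and 5. Without either wild-type library no region of the whole table was called, since the smallest adjusted p-values (limma) were then 0.0836 and 0.0811. At an unadjusted p under 0.05 these fits held 4870 lower and 10015 higher regions of the whole table without wild-type replicate 1, and 4836 and 10266 without wild-type replicate 2. Without knockout replicate 1 there were 5 of the 38 called higher and 2 lower, and without knockout replicate 2 there were 7 and 2. Without the mean-variance trend 16 were called higher and 2 lower, against 13589 and 6993 over the whole table. That fit lost the calls (adjusted p, limma) of region 6 of KCNQ1-CDKN1C (0.0988), regions 2 (0.0953) and 6 (0.0826) of DLK1-MEG3, region 3 of MAGEL2-SNRPN-UBE3A (0.116) and MEST (0.177). It added region 5 of KCNQ1-CDKN1C (0.0334) and region 1 of PLAGL1 (0.0338) as higher.

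**Figure D2:**
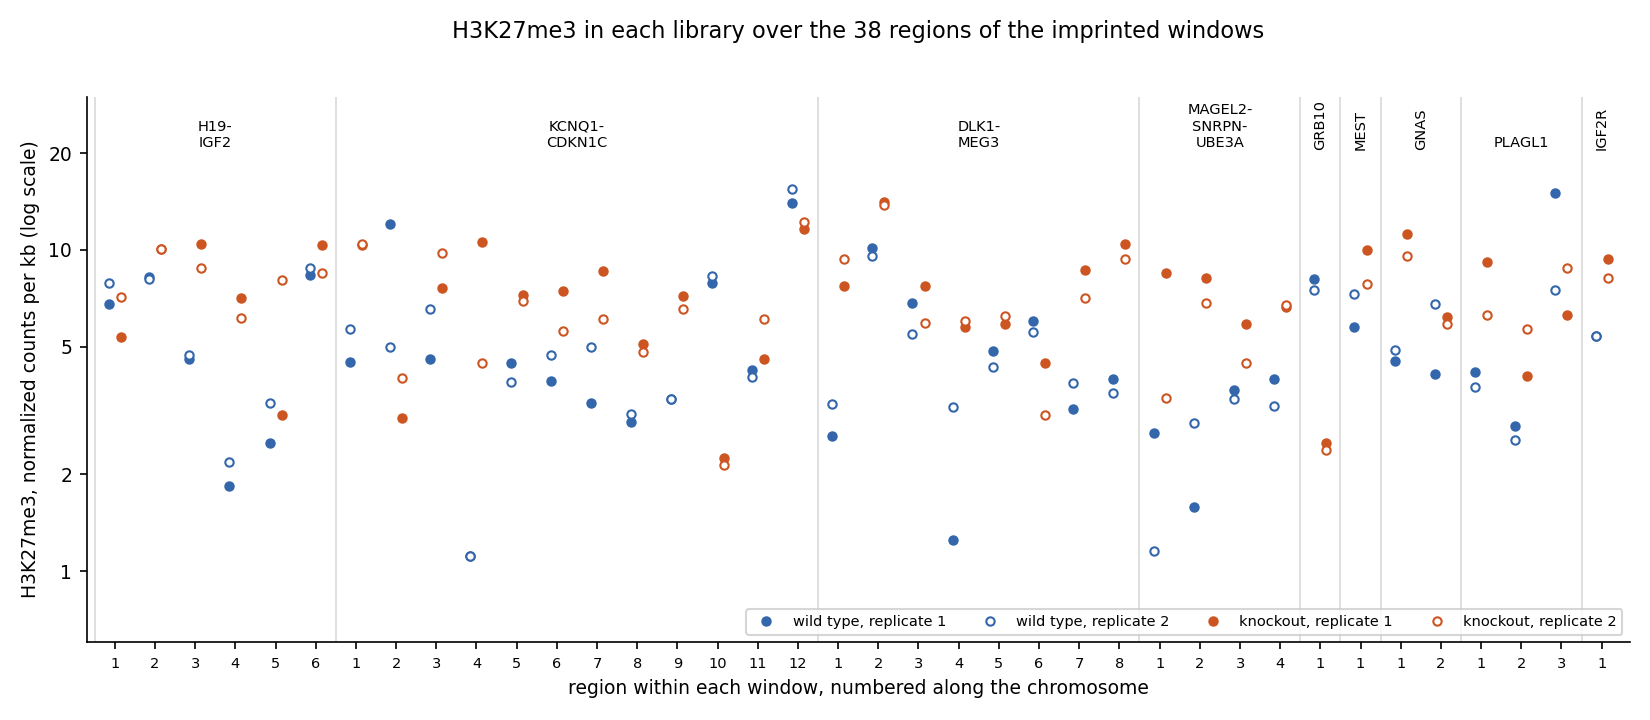
H3K27me3 in each of the 4 libraries over the 38 regions, in normalized counts per kb on a log axis, with regions numbered along the chromosome within each window. Filled points are replicate 1 and open points replicate 2. Knockout points lie far below wild type at region 10 of KCNQ1-CDKN1C and at GRB10, and above it at regions 7 and 8 of DLK1-MEG3.

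KCNQ1-CDKN1C contained the largest fall. CDKN1C encodes a cyclin-dependent kinase inhibitor expressed from the maternal allele, and KCNQ1 a potassium channel subunit. Region 10, the widest of the window's 12 at 51 kb (chromosome 11, 2785401 to 2836400), held 401 and 423 normalized counts of H3K27me3 in the wild-type libraries against 115 and 109 in the knockout libraries. Both knockout libraries lay far below both wild-type libraries. The fall was 3.68-fold (log2 fold change -1.87 ± 0.17, SE, adjusted p = 1.54e-17, limma), and it was called under both scalings and with either knockout library left out. The regions around it did not follow. Region 11, which starts 5.8 kb after it, went from 39 and 37 to 42 and 56 and was not called (adjusted p = 0.254, limma). Region 9, 52 kb before it, went from 11 and 11 to 23 and 21 and was called higher (adjusted p = 0.046, limma), but not with no filter on low values (0.0515).

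At the other end of the window, region 1 (40 kb, chromosome 11, 2427201 to 2467200) rose 2.05-fold, from 179 and 226 to 413 and 416 normalized counts (log2 fold change 1.04 ± 0.16, SE, adjusted p = 3.42e-08, limma). It was called under both scalings but not without knockout replicate 1 (adjusted p = 0.0743, limma) or replicate 2 (0.0677), and all but 7.2 kb of it lie before the window. The short regions between, 1 to 13.8 kb wide, had low values. Regions 6, 8 and 9 of them were called higher, with log2 fold changes between 0.58 and 0.94, and none of these calls held under either scaling. Regions 2 and 4 were not tested. Region 12 (chromosome 11, 2948001 to 2954800) had the highest wild-type density of the 38 in both marks, 15.7 normalized counts per kb of H2AK119ub and 14.7 of H3K27me3. Its H3K27me3 was 95 and 105 normalized counts against 79 and 83 after the knockout and was not called (log2 fold change -0.30, adjusted p = 0.192, limma), though both scalings called it lower. Over all 12 regions the sum was 922 ± 67.9 (SD, n = 2) before and 932 ± 18.4 (SD, n = 2) after the knockout, a ratio of 1.01. The ratio was 0.705 over the regions wholly inside the window, which leaves out regions 1 and 12, 0.703 with column totals and 0.712 with median-of-ratios factors.

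In the H19-IGF2 window H3K27me3 rose in the middle and was not called at the ends. H19 is a maternally expressed long noncoding RNA and IGF2 a paternally expressed fetal growth factor. Region 4 (11.4 kb, chromosome 11, 2105201 to 2116600) rose 3.28-fold, from 21 and 25 to 81 and 70 normalized counts (log2 fold change 1.67 ± 0.28, SE, adjusted p = 1.52e-07, limma). Its neighbour region 3 (36.2 kb) rose 2.07-fold, from 166 and 170 to 377 and 317 (adjusted p = 7.03e-08, limma). Both rises were called under both scalings. Without knockout replicate 1 or 2 the log2 fold change was 1.57 or 1.78 for region 4 and 0.912 or 1.16 for region 3.

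Region 4 also had the lowest H3K27me3 of the 38 for its H2AK119ub, 0.264 normalized counts for each of H2AK119ub in wild type, where the median of the 38 was 1.37. Its H2AK119ub went from 76 and 98 to 0 and 0. Region 6, the widest at 73.8 kb (chromosome 11, 2135201 to 2209000), extends past the window, and its libraries overlapped, with 617 and 649 for wild type against 764 and 626 for the knockout. It was not called (log2 fold change 0.13, adjusted p = 0.441, limma), but both scalings called it lower. Region 2 (29 kb) went from 238 and 236 to 291 and 292 (adjusted p = 0.0961, limma) and was called lower with column totals only, and region 1 held 19 and 22 against 15 and 20 (adjusted p = 0.613, limma).

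**Figure D3:**
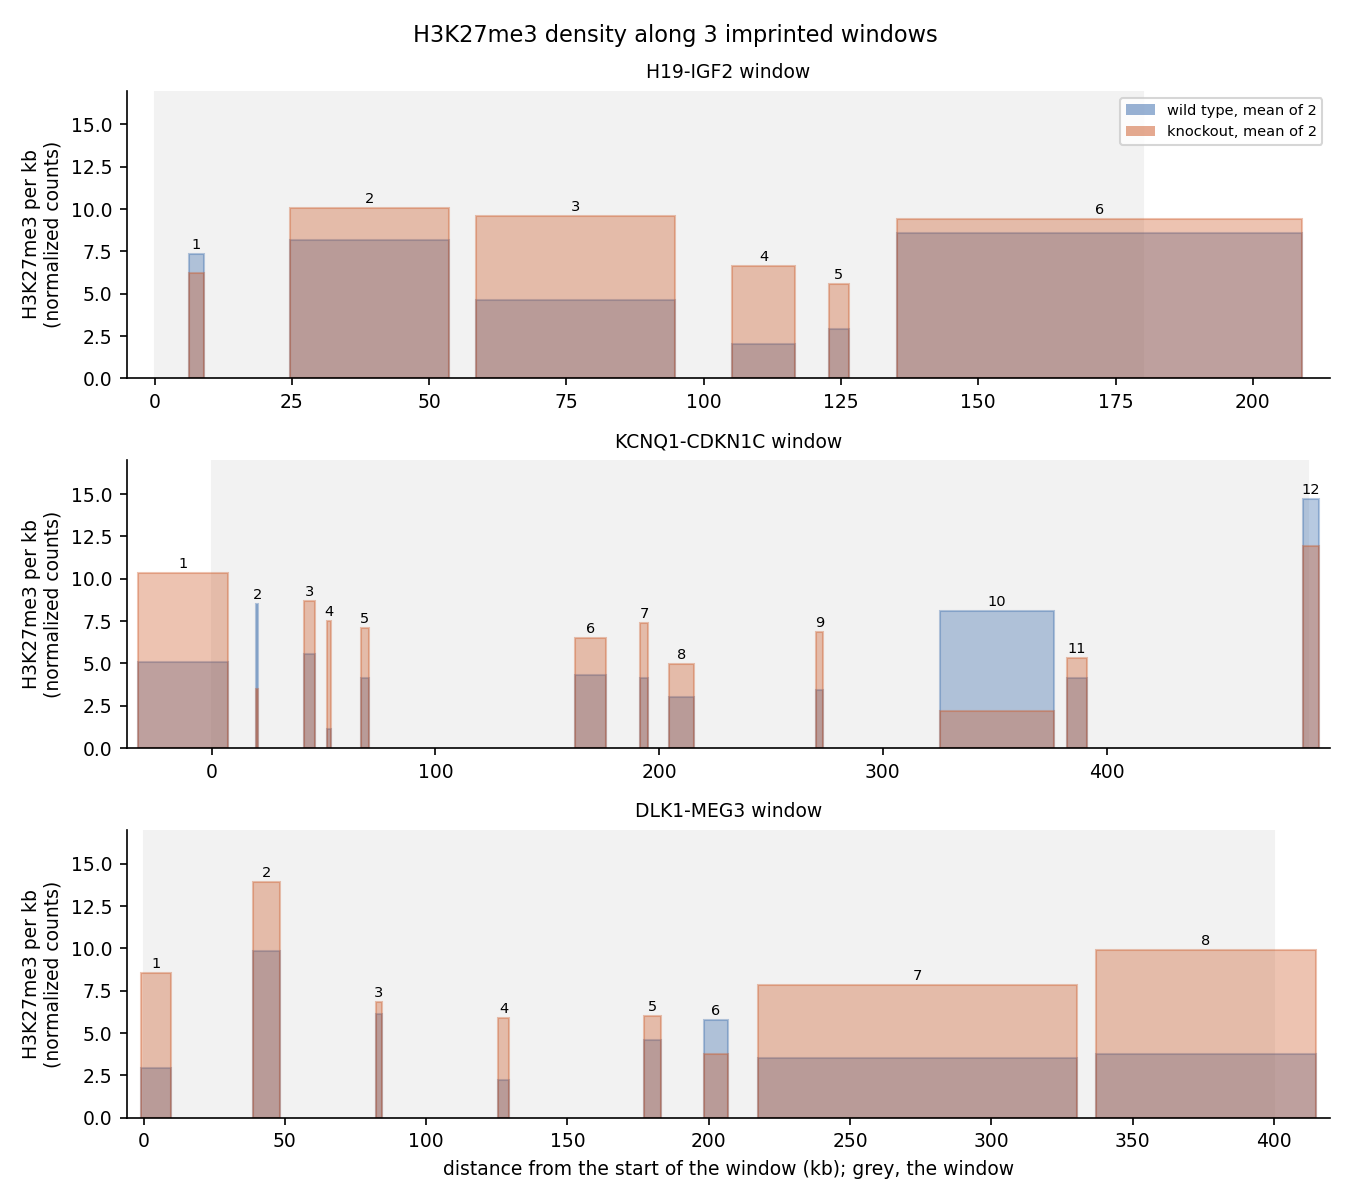
H3K27me3 density along the H19-IGF2, KCNQ1-CDKN1C and DLK1-MEG3 windows, by distance from the window start in kb. Each block is a numbered region, its height the mean of 2 libraries in normalized counts per kb, blue for wild type and orange for the knockout, and the window is shaded grey. Region 10 of KCNQ1-CDKN1C is the only block of over 10 kb that is higher in wild type.

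In DLK1-MEG3 5 of 8 regions gained H3K27me3 and 1 lost it, beside 47.3% higher and 22.8% lower among all tested regions. DLK1 encodes a paternally expressed transmembrane protein related to Notch ligands, and MEG3 a maternally expressed long noncoding RNA. On GRCh38, RefSeq places 107 genes from DLK1 to MEG9, of which 53 are miRNAs and 41 are small nucleolar RNAs, though where they lie among the hg19 regions was not tested. The window's sum rose from 918 ± 32.5 (SD, n = 2) to 1987 ± 183.8 (SD, n = 2) normalized counts, a ratio of 2.16. Most of the gain came from the last and widest regions. Region 7 (113 kb, chromosome 14, 101367401 to 101480400) went from 361 and 436 to 976 and 801 (log2 fold change 1.15 ± 0.15, SE, adjusted p = 1.36e-10, limma). Region 8 (77.6 kb, 101487201 to 101564800) went from 308 and 279 to 811 and 725 (log2 fold change 1.38 ± 0.15, SE, adjusted p = 1.64e-13, limma). Both rises were called under both scalings. Region 7 was not called without knockout replicate 1 (adjusted p = 0.0625, limma).

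At the start of the same window region 1 (10.6 kb, 101149201 to 101159800) rose 2.87-fold, from 28 and 35 to 82 and 99 normalized counts (log2 fold change 1.50 ± 0.25, SE, adjusted p = 2.31e-07, limma). It was not called without knockout replicate 1 (adjusted p = 0.051, limma) or replicate 2 (0.0527). Region 2, the densest of the window in wild-type H3K27me3 at 9.84 normalized counts per kb, went from 97 and 92 to 135 and 132 (adjusted p = 0.0212, limma) and lost its call under both scalings. Region 4 rose from 5 and 13 to 23 and 24, with a low wild-type value in replicate 1, and was not called under either scaling. Directly before the wide regions, region 6 (8.8 kb, 101348201 to 101357000) went the other way. It went from 53 and 49 to 39 and 27 (log2 fold change -0.63 ± 0.28, SE, adjusted p = 0.0393, limma), was called lower under both scalings, and was not called with knockout replicate 1 (adjusted p = 0.0538, limma) or 2 (0.124) left out. Regions 3 and 5 were not called.

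The GRB10 window had a single region, and it fell. The region (8.4 kb, chromosome 7, 50866601 to 50875000) went from 68 and 63 to 21 and 20 normalized counts of H3K27me3, a 3.2-fold fall (log2 fold change -1.63 ± 0.29, SE, adjusted p = 9.93e-07, limma). The groups did not overlap, and the call held under both scalings and with either knockout library left out. Its H2AK119ub went from 39 and 52 to 1 and 0.

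GNAS, the gene of the stimulatory G protein alpha subunit with imprinted alternative transcripts, had a wide and a narrow region. Region 1 (51.4 kb, chromosome 20, 57385201 to 57436600) rose 2.22-fold, from 231 and 251 to 577 and 493 (log2 fold change 1.14 ± 0.16, SE, adjusted p = 7.25e-10, limma), and was called under both scalings and with either knockout library left out. Region 2 (3.4 kb) held 14 and 23 against 21 and 20 and was not called (adjusted p = 0.689, limma).

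The IGF2R region (44.4 kb, chromosome 6, 160344201 to 160388600) rose 1.62-fold, from 240 and 240 to 416 and 363 (log2 fold change 0.69 ± 0.16, SE, adjusted p = 0.000111, limma). IGF2R is the receptor that clears IGF2, and it is imprinted in mouse. The MEST region (45.4 kb, chromosome 7, 130090801 to 130136200) went from 262 and 330 to 455 and 355, a ratio of 1.37 (log2 fold change 0.45 ± 0.16, SE, adjusted p = 0.0108, limma). MEST is a paternally expressed gene for a protein of the hydrolase fold. Neither call held under either scaling, and at MEST the lower knockout value was only narrowly above the higher wild-type value. The MEST call was lost without knockout replicate 1 (adjusted p = 0.365, limma) and replicate 2 (0.125).

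In the MAGEL2-SNRPN-UBE3A window all 3 tested regions rose from low levels. The share called higher was 47.3% among all tested regions. It was 68.1% to 76.8% in the H2AK119ub density bins of these 3, which are defined below. MAGEL2 and SNRPN are paternally expressed, and UBE3A is maternally expressed in neurons. Region 2 (3.8 kb, chromosome 15, 25520801 to 25524600) went from 6 and 11 to 31 and 26 normalized counts (log2 fold change 1.68 ± 0.44, SE, adjusted p = 0.000509, limma). Region 3 (18 kb, 25547201 to 25565200) went from 66 and 62 to 106 and 80 (adjusted p = 0.0321, limma), and region 4 (8.6 kb) from 34 and 28 to 57 and 58 (adjusted p = 0.00388, limma). Only region 2 was called under both scalings, and it was not called with either knockout library left out. Its log2 fold change was then 1.56 without knockout replicate 1 and 1.8 without replicate 2. Region 1, which lies alone in the window up to region 2, held 7 and 3 against 22 and 9 after the knockout and was not tested. At PLAGL1, region 2 went from 21 and 19 to 30 and 42 (adjusted p = 0.0307, limma), a call that held under neither scaling. PLAGL1 region 1 held 10 and 9 against 22 and 15 and was not called (adjusted p = 0.0864, limma), and region 3 held 12 and 6 against 5 and 7 and was not tested.

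Over the whole table the H3K27me3 change goes with wild-type H2AK119ub density, so the 38 regions were set beside regions of like density. All regions were split into 10 bins of equal size by their wild-type H2AK119ub density. Bins 8 to 10, above 4.17 normalized counts per kb, held 14 of the 38, of which 13 were tested. Their median log2 fold change was 0.35, 4 were called higher and 2 lower. Of the 9451 tested regions of these bins 13.8% were higher and 50.7% lower, with a median of -0.74. The 4 higher calls were region 4 of H19-IGF2, region 1 of KCNQ1-CDKN1C, region 2 of DLK1-MEG3 and region 1 of GNAS, and the 2 lower calls were region 10 of KCNQ1-CDKN1C and the GRB10 region.

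Region by region, 11 of these 13 lay above the median of their bin, and the exceptions were the 2 that fell. Region 4 of H19-IGF2 was at the 99.4th percentile of bin 10 and region 1 of KCNQ1-CDKN1C at the 97.3rd. The 2 that fell, region 10 of KCNQ1-CDKN1C and GRB10, were at the 32.8th percentile of bin 10 and the 31.3rd of bin 9. Of all tested regions in bins 9 and 10, 51.6% and 60.6% were called lower. In bins 1 to 7, 9 of 21 tested regions lay above their bin's median, and the median log2 fold change was 0.73 against 0.90 for all tested regions of those bins. Regions 7 and 8 of DLK1-MEG3 were at the 48.8th percentile of bin 2 and the 81.5th of bin 4. Regions 2, 3 and 4 of MAGEL2-SNRPN-UBE3A were at the 74.4th of bin 1, the 26.5th of bin 4 and the 36.6th of bin 3. In bins 1, 2, 3 and 4, 76.8%, 76.9%, 72.4% and 68.1% of all tested regions were called higher. Of the 13 tested regions in bins 8 to 10, 9 lie in the neighbouring chromosome 11 windows, so they are not independent of each other. The bins match regions by H2AK119ub only, and not by the wild-type H3K27me3 from which the change is measured. Whether the starting H3K27me3 goes with a place above or below the bin median was not tested. The values are a description, and no test was made of whether imprinted regions differ from others of like density.

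**Figure D4:**
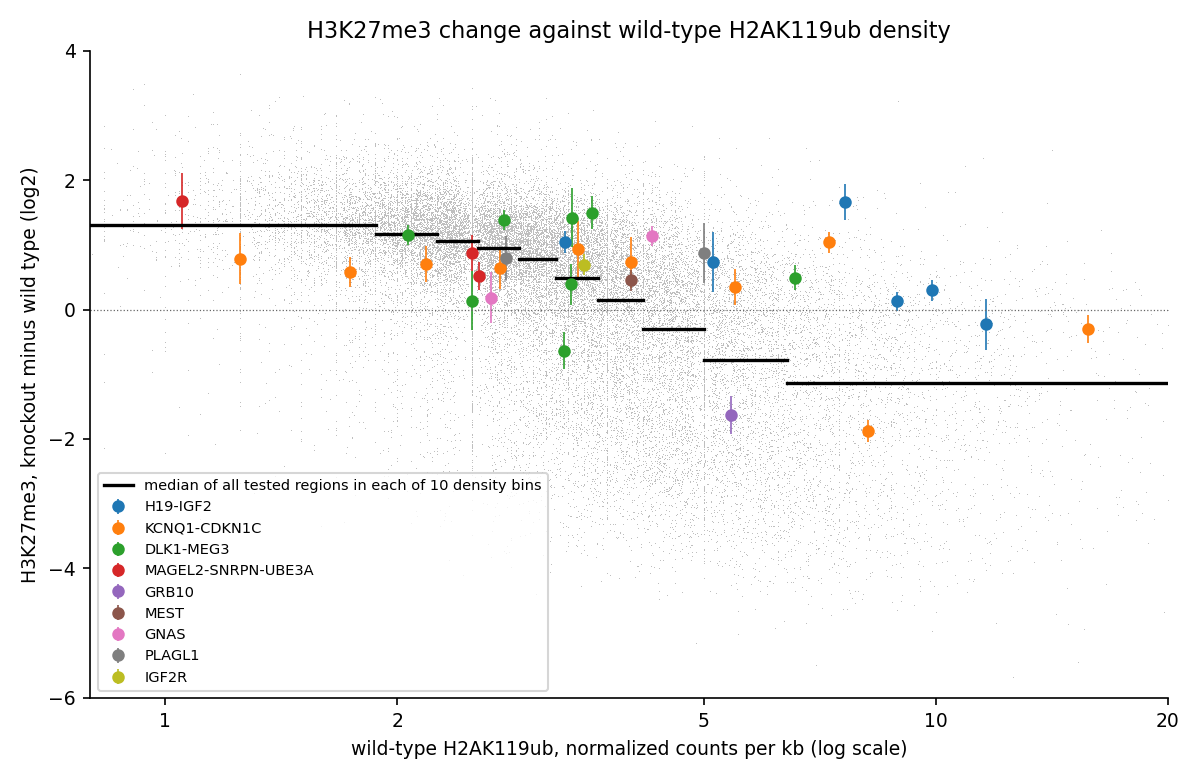
H3K27me3 change, knockout minus wild type on the log2 scale, against wild-type H2AK119ub in normalized counts per kb on a log axis cropped to 0.8 to 20. Grey dots are all tested regions in that range, black lines the median in each of 10 density bins, and coloured points the 34 tested imprinted regions with their SE. Above 4.17 per kb, 11 of 13 coloured points lie above the black line.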

How the data were processed

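The authors deposited 1 table with 34703 regions of 23 chromosomes on hg19 and, per the file headers, a normalized count for each region in each of 8 libraries. These whole numbers, normalized by the authors, were treated as a score and not as read counts. Bowtie2, SAMtools, Picard, bedtools and deepTools are listed in the submitters' processing notes. The sources used here do not describe how regions were called or values normalized. The authors' deposited log2 values and log2 fold changes and their p-value columns, per the file headers, were used only to count regions past a fold of 1 on that scale with p under 0.05. Starts in the file count from 0, so 1 was added to starts and ends.

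The 38 regions, the windows, the lists and the tests were chosen with earlier results of these data known. For each mark limma 3.58.1 (R 4.3.3) was fitted over the whole table to log2 values of the normalized count plus 1. A mean-variance trend was used, and p-values were adjusted by Benjamini-Hochberg with a threshold of 0.05. A region was tested when at least 2 of the 4 libraries of the mark reached 10 and their sum was at least 15. The prior had 1.1 degrees of freedom for H2AK119ub and 107 for H3K27me3. The small H3K27me3 p-values and the SEs of its log2 fold changes therefore rest mostly on a spread shared across regions. These SEs are not the replicate error of each region alone. The fit was tested on simulated data drawn around the wild-type means. The simulation held no nearly empty libraries like those of knockout H2AK119ub, so it says nothing on those fold changes. Sums, densities and percentiles were computed in Python 3.11.15 with pandas 2.3.3. Regions named in full were the widest, the lowest and the highest by H3K27me3 log2 fold change in each window, and every region of windows with 3 or fewer. The others were added after their values were seen. Gene lists were not applied, since the table names no genes. Promoter sequences and gene order come from RefSeq on GRCh38.p14.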

Additional observations from a re-analysis of the deposited data

How the results depend on the processing

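The median H2AK119ub change was negative under every alternative run, but its size depended on the scaling. Column totals left 10 of 29 regions called lower with a median log2 fold change of -0.85, and median-of-ratios factors left 12 with -0.91. The summed H2AK119ub was then 96.4% and 63.1% of wild type, because both scalings raise the nearly empty knockout libraries by construction. The median was -5.72 with a pseudocount of 0.5, -4.28 with no filter and -4.48 over regions wholly inside a window. For H3K27me3, 8 regions were called higher under either scaling, with 6 lower for column totals and 5 for median of ratios, and the median log2 fold change was 0.18 and 0.20. Both scalings divide the knockout H3K27me3 libraries by larger factors than the wild-type ones, which lowers the log2 fold changes by construction. For column totals the factors were 1.278 and 1.087 for knockout against 0.807 and 0.828 for wild type. Why the totals differ was not tested.

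The summed H3K27me3 ratio of knockout to wild type under column totals and median of ratios was 0.917 and 0.929 at H19-IGF2, 0.703 and 0.712 at KCNQ1-CDKN1C, and 1.50 and 1.52 at DLK1-MEG3. It was 1.24 and 1.25 at MAGEL2-SNRPN-UBE3A, 0.217 and 0.220 at GRB10, and 0.944 and 0.955 at MEST. At GNAS it was 1.48 and 1.50, at PLAGL1 1.10 and 1.11, at IGF2R 1.12 and 1.14, and over all 38 regions 1.05 and 1.07. With only regions wholly inside a window, which are fewer by construction, the ratio was 1.64 at H19-IGF2, 0.705 at KCNQ1-CDKN1C, 1.90 at DLK1-MEG3 and 1.11 at GNAS.

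Some single regions changed direction in H3K27me3. Under column totals and median of ratios the log2 fold change was -0.23 and -0.21 for region 2 of H19-IGF2, -0.40 and -0.38 for its region 6, and -0.17 and -0.15 for region 11 of KCNQ1-CDKN1C. In DLK1-MEG3 it was -0.029 and -0.011 for region 2, -0.36 and -0.34 for region 3, and -0.12 and -0.10 for region 5. The MEST region had -0.077 and -0.059, region 2 of GNAS -0.32 and -0.30, and region 3 of MAGEL2-SNRPN-UBE3A -0.0022 under column totals. With 1 library left out at a time, region 6 of H19-IGF2 ran from -0.016 without knockout replicate 1 to 0.27. Region 3 of DLK1-MEG3 ran from -0.043 without knockout replicate 1, and -0.011 without wild-type replicate 2, to 0.32. Region 2 of GNAS ran from -0.16 without wild-type replicate 1 to 0.52. The regions called in the report that changed direction were region 2 of DLK1-MEG3, region 3 of MAGEL2-SNRPN-UBE3A and MEST.

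Leaving out 1 library at a time gave 16 to 29 regions called lower in H2AK119ub with a median between -5.48 and -4.91. For H3K27me3 it gave 0 to 7 called higher, 0 to 2 lower and a median between 0.55 and 0.73. The prior degrees of freedom of the H3K27me3 fit then fell from 107 to between 1.09 and 1.4. Over all tested regions the H3K27me3 counts ran from 0 to 4262 lower and 0 to 8148 higher, against 7338 and 15228 with all libraries. The scalings gave 10906 and 10759 lower and 9613 and 9860 higher, and for H2AK119ub 10175 and 10425 lower against 23699. Without wild-type replicate 1 or 2 the H2AK119ub count was 12397 or 12377. Summed H2AK119ub ran from 0.942% to 1.20% of wild type. The H3K27me3 ratio ran from 1.24 to 1.41 at H19-IGF2, 0.961 to 1.07 at KCNQ1-CDKN1C, 2.02 to 2.31 at DLK1-MEG3, 1.59 to 1.99 at MAGEL2-SNRPN-UBE3A and 0.301 to 0.325 at GRB10. It ran from 1.20 to 1.55 at MEST, 1.98 to 2.30 at GNAS, 1.41 to 1.78 at PLAGL1, 1.51 to 1.73 at IGF2R and 1.43 to 1.62 over all 38.

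Deviations of same-numbered libraries correlated at -0.0001 for H2AK119ub and 0.0112 for H3K27me3. Pairing is not excluded by these values. The knockout H2AK119ub libraries were nearly empty, a limit that does not apply to H3K27me3. The low H3K27me3 correlation shows little shared deviation, but not whether same-numbered libraries were made together. The sources used do not say whether same-numbered libraries belong together. With the replicate block, 29 regions were called lower in H2AK119ub, and 18 higher and 3 lower in H3K27me3. Over the whole table that fit called 23700 lower in H2AK119ub, and 15015 higher and 7279 lower in H3K27me3. Sequencing depth is unknown, so no interval from counting can be given, and regions with fewer than 2 libraries at 10 or more were not tested. The values rest on 2 libraries a group and on a normalization that the sources used do not describe.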
